A study of Mus musculus with 70 samples.

Results

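The Notch ligands Jag1, Jag2, Dll1 and Dll4, the Notch receptors Notch1, Notch2, Notch3 and Notch4, and the Notch target genes Hes1 and Hey1 were followed in mouse bone after 2 kinds of fracture. The 10 genes were taken by gene symbol from the tables of expression values, and each of the 10 was found in all 10 tables, among 45634 gene names shared by both bones. All 10 passed the filter on low values in both bones, through intact as well as injured libraries.

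The RNA came from bone sections of 12-week-old female C57BL/6 mice and was sequenced after removal of ribosomal RNA. Femurs received a full fracture and were collected after 4 h, 1 d, 3 d, 7 d and 14 d, with 5 libraries at each time. Ulnas received a stress fracture and were collected after 4 h, 3 d and 5 d, with 5 libraries each, and after 1 d and 7 d, with 4 libraries each. The left limbs of injured mice were the intact controls, with 10 femur and 9 ulna libraries, so no group came from an uninjured animal. A femur sample was a 7 mm section from which marrow had been spun out, whereas an ulna sample was a 5 mm section for which the protocol names no such step. The sample labels speak of periosteum, but the protocol describes pulverised bone sections, so the values are those of mixed tissue. In such bulk samples, fewer cells of a type and less RNA per cell cannot be told apart.

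Notch receptors are single-pass membrane proteins that are bound by ligands of the Jagged and Delta-like families on a neighbouring cell. Binding leads to cleavage of the receptor by ADAM proteases and then by gamma-secretase, and the freed intracellular domain joins the DNA-binding protein RBPJ to switch on genes such as Hes1 and Hey1, which encode transcriptional repressors. In bone the pathway is known for holding back osteoblast maturation in skeletal progenitors, and Dll4 with Notch1 and Notch4 for shaping growing blood vessels.

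Promoters of 2 members with opposite changes 1 d after full fracture are shown, because Dll4 then stood at its highest level and Notch3 below its intact level. Each sequence is the 250 bases before the RefSeq start site on GRCm38.p6, written 5′ to 3′ on the strand of the gene, with CG dinucleotides in capitals. The Notch3 promoter lies at chr17:32166891-32167140 on the minus strand and the Dll4 promoter at chr2:119325534-119325783 on the plus strand.
Notch3: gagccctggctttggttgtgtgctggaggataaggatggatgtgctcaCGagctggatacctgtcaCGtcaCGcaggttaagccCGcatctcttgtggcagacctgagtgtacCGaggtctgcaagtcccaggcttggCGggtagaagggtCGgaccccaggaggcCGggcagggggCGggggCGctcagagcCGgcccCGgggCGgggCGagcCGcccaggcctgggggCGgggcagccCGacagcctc
Dll4: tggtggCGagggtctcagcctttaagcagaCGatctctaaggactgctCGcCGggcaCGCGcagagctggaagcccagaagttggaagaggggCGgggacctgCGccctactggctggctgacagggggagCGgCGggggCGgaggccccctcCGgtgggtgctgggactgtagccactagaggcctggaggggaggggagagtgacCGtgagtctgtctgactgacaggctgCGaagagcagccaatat

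The Notch3 promoter held 17 CG dinucleotides and the Dll4 promoter 14, against a median of 6 over 32851 mouse promoters of the same length. RefSeq promoters were found for 8 of the 10 members, in 9 windows because Dll1 had 2, with 4 CG dinucleotides in that of Notch4 and 54 in that of Jag2. The core letters of the RBPJ site, TGGGAA, searched on both strands, were in none of the 9 windows, while 21.6% of all promoters held them. The E-box CACGTG, to which HES and HEY repressors can bind, was also in none, against 6.02% of all promoters. With no match of either motif none overlapped, and this says only that these letters are not within these bases. Hes1 and Hey1 had no entry.

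Expression is given as scaled RPKM, the deposited RPKM (reads divided by gene length and by library total) after division by 1 factor per library, so genes can be compared by level. Libraries held 8.11 to 30.8 M assigned reads, as recovered from the steps of the deposited values, and the smallest number of reads behind any member in any library was 30, for Hey1. A change is the difference in mean log2(scaled RPKM + 0.1) between injured and intact limbs of the same bone, with its standard error (SE) from limma. Adjusted p-values are Benjamini-Hochberg values over all genes tested, and changes with an adjusted p under 0.05 are called higher or lower. Columns could not be tied to animals, so limbs of the same mouse were treated as independent. The p-values therefore measure the spread between samples within groups. Each intact group pooled left limbs of mice collected at different times after injury.

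In intact femurs, Notch2 was the most abundant member at 22.9 ± 1.5 (SD, n = 10) scaled RPKM, followed by Notch3 at 13.3 ± 2.25. Jag2 at 8.46 ± 1.27, Jag1 at 7.86 ± 0.979, Notch1 at 6.57 ± 0.570 and Hes1 at 6.28 ± 1.20 formed a middle group whose neighbours did not differ beyond their spread. Notch4 at 4.10 ± 0.981, Dll4 at 3.30 ± 0.626 and Hey1 at 3.19 ± 0.810 also overlapped, and Dll1 was lowest at 1.91 ± 0.388. Intact ulnas, scaled on their own, had Notch2 highest at 30.2 ± 1.69 (SD, n = 9) and Dll1 lowest at 1.71 ± 0.476.

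After full fracture more members rose than fell at every time. At 4 h, 5 members rose and 3 fell, where 28.3% of the 19944 genes tested were called higher and 28.5% lower. At 1 d, 5 rose and 2 fell, against 26.7% of genes called higher and 24.8% called lower. By 3 d, 7 had risen and 1 had fallen, against 28.8% higher and 28.0% lower. The counts at 7 d were 5 higher and 2 lower, beside 32.5% and 33.6% of all genes, and at 14 d they were 8 higher and 1 lower, beside 28.9% and 27.0%. The median change over the 10 members was 0.26, 0.32, 0.52, 0.26 and 0.46 on the log2 scale at the 5 times in order, while the median of all genes lay between -0.08 and -0.03. Falls were thus about as frequent among the members as among all genes at 4 h, the rises exceeded the background share most at 3 d and 14 d, and at 7 d the share of members called in the 2 directions together was near that of all genes. The members were chosen with earlier results of these data known, so such shares, here and below, are a description.

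After stress fracture few members were called before 3 d, when few of all genes were called as well. At 4 h none rose and 1 fell, where 5.51% of 20506 genes were called higher and 5.19% lower, and at 1 d none was called in either direction, against 8.83% higher and 3.98% lower. At an unadjusted limma p under 0.05, 3 members were higher at 4 h, and 2 were higher and 0 lower at 1 d. The smallest adjusted p at 1 d was 0.0812, for Dll1, and the authors' deposited table called 1 member at that time, Hey1, higher. At 3 d 4 members rose and none fell, with 20.2% of all genes higher and 17.6% lower. At 5 d 7 rose and none fell, with 22.3% higher and 20.9% lower, and at 7 d again 7 rose and none fell, with 18.5% higher and 16.0% lower. At an unadjusted limma p under 0.05, 1 member was lower at 3 d and 0 at 5 d and 7 d, and the authors' deposited table called none lower at these times. The median change of the members was 0.48 at both 5 d and 7 d, and that of all genes was -0.03 and -0.01. All members' changes are drawn in the map of log2 differences.

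**Figure D1:**
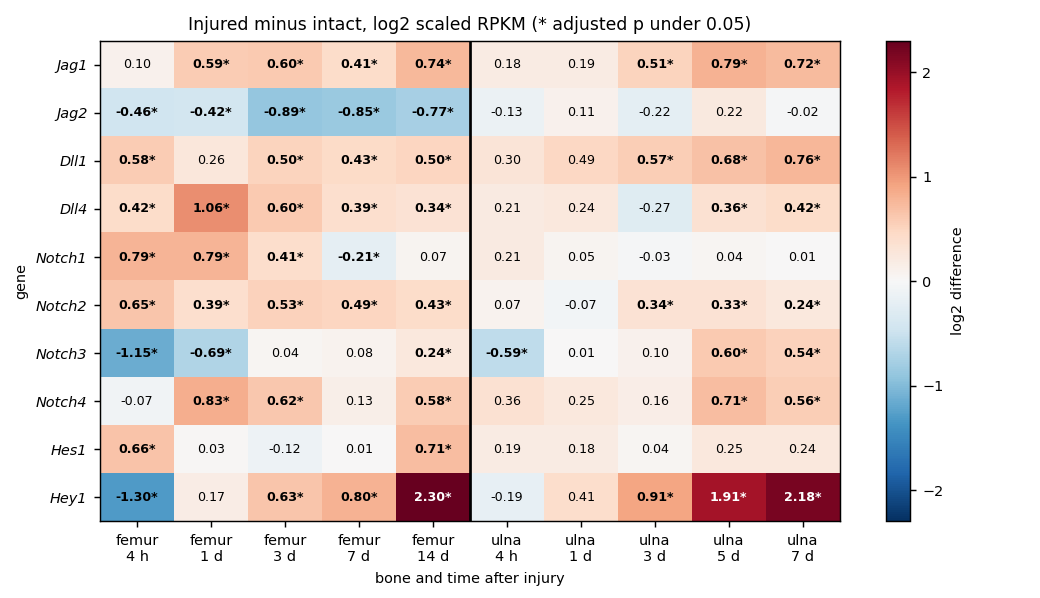
Difference in mean log2(scaled RPKM + 0.1) between injured and intact limbs for each of the 10 genes (rows) at 5 times after full fracture of the femur and 5 times after stress fracture of the ulna (columns), coloured from blue (lower) to red (higher), with an asterisk where the adjusted p was under 0.05. Jag2 was lower at all 5 femur times, Hey1 reached 2.30 in femurs at 14 d and 2.18 in ulnas at 7 d, and few ulna cells are marked at 4 h and 1 d.

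Among the ligands, Jag1 and Jag2 moved in opposite directions in the fractured femur. Jag1 (chromosome 2, 137081456 to 137116644, GRCm38, minus strand), a ligand expressed in skeletal progenitors, osteoblasts and vessels, ranged from 6.17 to 9.16 scaled RPKM in intact femurs with a median of 7.94. At 4 h its levels of 8.48, 8.47, 9.35, 7.83 and 7.89 overlapped that range. At 1 d they were 12.5, 14.2, 10.4, 10.3 and 12.2, all above every intact femur, a change of 0.59 ± 0.08 (limma adjusted p = 3.09e-07). All 5 libraries also lay above the intact range at 3 d, 7 d and 14 d, and at 14 d the levels of 13.3, 12.5, 14.2, 12.3 and 13.2 gave a change of 0.74 ± 0.08 (limma adjusted p = 3.34e-09). From 1 d on the change was smallest at 7 d, 0.41 ± 0.08, and there it was 0.20 and no longer called on RPKM as deposited (limma adjusted p = 0.0563).

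In ulnas Jag1 ran from 6.94 to 10.2 with a median of 7.62 in intact limbs, and the levels at 4 h and 1 d were not called different. It rose at 3 d by 0.51 ± 0.09 (limma adjusted p = 2.77e-05), with 4 of 5 libraries above all intact ulnas. At 5 d the levels of 12.2, 13.7, 13.3, 16.4 and 11.9 and at 7 d those of 13.8, 12.1, 11.9 and 13.5 all lay above the intact range. The changes were 0.79 ± 0.09 at 5 d (limma adjusted p = 1.70e-08) and 0.72 ± 0.09 at 7 d (limma adjusted p = 7.49e-07). Osteoblast markers stood higher in the same groups, with 12 of 12 called higher at 5 d and at 7 d. Their summed level was 857 to 3641 scaled RPKM in intact ulnas, 11610 to 18450 at 5 d and 9013 to 16670 at 7 d, with no marker at 0. In femurs the sum was 3951 to 12930 in intact limbs, 4886 to 7866 at 1 d and 8919 to 10720 at 3 d. It was 9736 to 17960 at 7 d and 19970 to 23740 at 14 d. The part of these markers in the Jag1 changes was not tested.

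Jag2 (chromosome 12, 112907819 to 112929776, minus strand), the second Jagged ligand, ranged from 5.79 to 10.3 in intact femurs with a median of 8.86. At 4 h after full fracture the levels were 4.56, 5.67, 4.26, 8.58 and 8.71, of which 3 lay below and 2 within the intact range, a change of -0.46 ± 0.14 (limma adjusted p = 0.00506). At 3 d they were 4.68, 3.94, 5.06, 4.42 and 4.26, all below every intact femur, a change of -0.89 ± 0.14 (limma adjusted p = 1.24e-06). The groups stayed apart at 7 d, with a change of -0.85 ± 0.14, and at 14 d, when the levels of 5.42, 5.21, 4.85, 3.84 and 5.16 gave -0.77 ± 0.14 (limma adjusted p = 1.36e-05). In ulnas no change of Jag2 was called at any time, the changes running from -0.22 to 0.22, and its levels overlapped the intact range of 6.90 to 11.6 throughout. On RPKM as deposited the 3 d change was -0.28 and called lower (limma adjusted p = 0.0441). Adipocyte markers also fell in femurs, with 9 of 9 called lower at each time from 1 d on. Their summed level was 132 to 335 in intact femurs, 22.9 to 92.2 at 3 d and 43.9 to 50.1 at 14 d, with none at 0. Skeletal muscle markers fell at 3 d in 12 of 12 cases, from 10340 to 33010 in intact femurs to 2620 to 6482, and the part of either list in the Jag2 change was not tested.

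**Figure D2:**
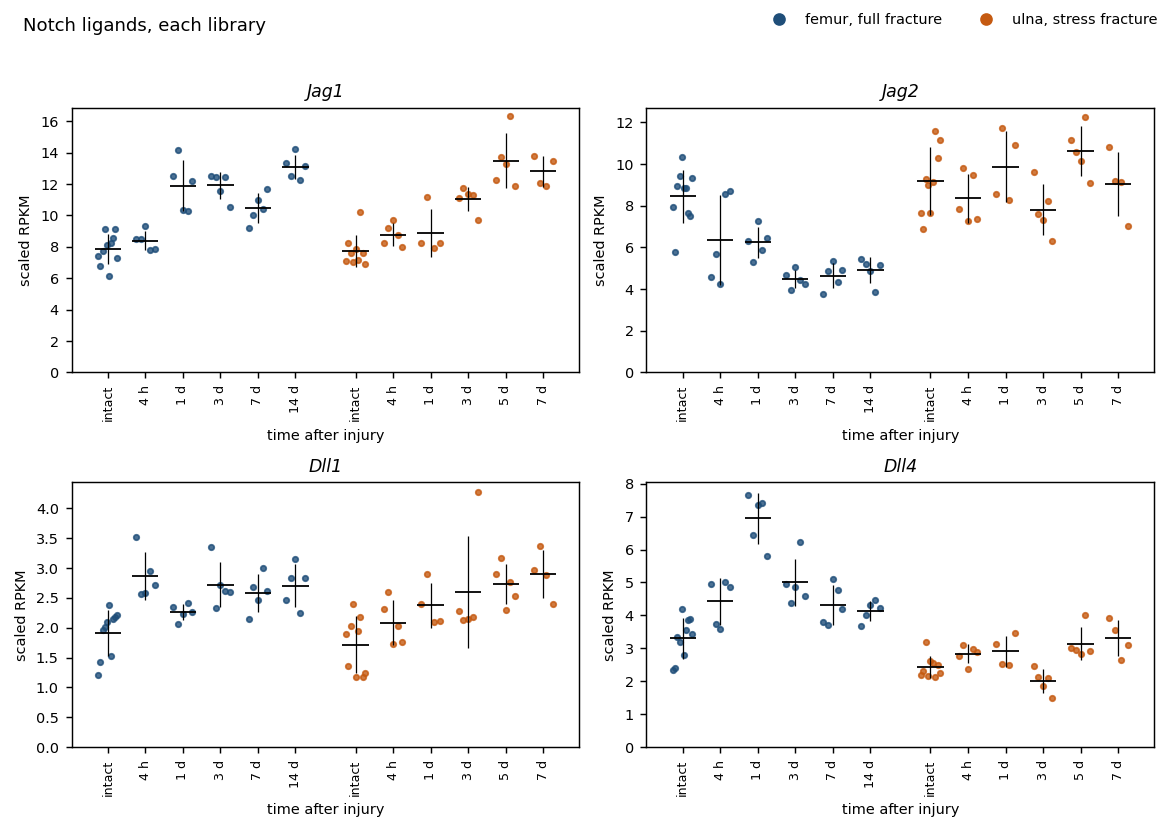
Scaled RPKM (vertical axes, from 0) of the 4 Notch ligands in every library, by time after injury (horizontal axes), with femurs in blue and ulnas in orange, a horizontal line at the group mean and a vertical line of 1 SD to each side. Jag1 rose in both bones, Jag2 fell in femurs, and Dll4 peaked in femurs at 1 d with levels of 5.81 to 7.66. The bones were scaled separately, so levels compare within a bone.

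Dll4 (chromosome 2, 119325784 to 119335962, plus strand), the Delta-like ligand of endothelial tip cells, ranged from 2.35 to 4.20 in intact femurs with a median of 3.39. Levels at 4 h were 4.94, 3.73, 3.58, 5.00 and 4.87, of which 3 exceeded all intact femurs, a change of 0.42 ± 0.12 (limma adjusted p = 0.00296). At 1 d they were 7.66, 6.45, 7.37, 7.42 and 5.81, all above the intact range, and the change of 1.06 ± 0.12 was a 2.09-fold rise (limma adjusted p = 5.73e-09). The change then decreased to 0.60 ± 0.12 at 3 d, 0.39 ± 0.12 at 7 d and 0.34 ± 0.12 at 14 d, each still called, although at 7 d it was 0.17 on RPKM as deposited (limma adjusted p = 0.178). In ulnas Dll4 was called only at 5 d and 7 d, with 0.36 ± 0.11 and 0.42 ± 0.12 (limma adjusted p = 0.0128 and 0.00801). Each of these ulna calls rested on 1 library: without library 4 at 5 d the change was 0.27 (adjusted p = 0.0721), and without library 1 at 7 d it was 0.34 (adjusted p = 0.0584). Levels at 3 d were 2.47, 2.13, 1.87, 2.10 and 1.49, of which 4 lay below all intact ulnas, a change of -0.27 ± 0.11 that was not called (limma adjusted p = 0.0638) but was called without library 1 at 3 d (-0.34, adjusted p = 0.0240). On RPKM as deposited the 3 d change was -0.32 and called (limma adjusted p = 0.0139), as it was with upper quartile scaling (-0.29, adjusted p = 0.0435), while the 5 d change was 0.20 and not called (adjusted p = 0.108).

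Endothelial markers were measured beside Dll4. Of 15 endothelial markers, 7 were called higher and 2 lower in femurs at 1 d, with a median change of 0.27. Their summed level was 177 to 233 scaled RPKM in intact femurs, 220.2 to 281 at 1 d and 236 to 278 at 14 d, and no marker was at 0. In ulnas 12 of 15 were higher and 1 lower at 5 d, with sums of 187 to 218 in intact limbs and 236 to 312 at 5 d. Their part in the changes of Dll4 and of the other vascular members was not tested.

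Dll1 (chromosome 17, 15367354 to 15376872, minus strand), a Delta-like ligand of progenitor cells in many tissues, was the least abundant member, with 1.21 to 2.38 in intact femurs and a median of 2.05. At 4 h after full fracture the levels were 3.52, 2.57, 2.59, 2.96 and 2.71, all above the intact range, a change of 0.58 ± 0.12 (limma adjusted p = 1.22e-04). It was not called at 1 d (0.26 ± 0.12, limma adjusted p = 0.0751), a result that changed on leaving out intact library 6 (0.29, adjusted p = 0.0412). At 3 d, 7 d and 14 d it rose by 0.50, 0.43 and 0.50, each ± 0.12, with 4 of 5 libraries above all intact femurs at each time. On RPKM as deposited the rise at 7 d was 0.22 and not called (limma adjusted p = 0.107). Ulna levels rose by 0.57 ± 0.17 at 3 d, 0.68 ± 0.17 at 5 d and 0.76 ± 0.18 at 7 d. At 3 d, library 5 stood at 4.28 and the other 4 between 2.12 and 2.29, inside the intact range of 1.17 to 2.4, and without it the change was 0.38 and not called (limma adjusted p = 0.0718). At 7 d the levels were 2.97, 3.36, 2.89 and 2.39, of which 3 exceeded all intact ulnas (limma adjusted p = 0.00163). No variation among the injured times was called for Dll1 in either bone.

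The receptors split by time. Notch1 (chromosome 2, 26457903 to 26516663, minus strand), the widely expressed receptor of immune and endothelial cells, ranged from 5.80 to 7.42 in intact femurs with a median of 6.60. At 4 h after full fracture the levels were 11.9, 12.6, 12.4, 8.43 and 12.2, and at 1 d 12.9, 11, 11.8, 11.8 and 9.73, all above every intact femur. Both changes were 0.79 ± 0.08 (limma adjusted p = 1.17e-09 at 4 h and 1.86e-09 at 1 d). At 3 d levels of 7.99 to 9.29 still lay above the intact range, with a change of 0.41 ± 0.08. At 7 d the levels of 5.75, 4.84, 5.33, 6.46 and 5.97 were all under the intact median, a change of -0.21 ± 0.08 (limma adjusted p = 0.0252) that was not called without library 2 (-0.16, adjusted p = 0.116) or library 3 (-0.19, adjusted p = 0.0654) of that time. At 14 d no change was called. In ulnas no change of Notch1 was called at any time, with changes from -0.03 to 0.21.

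Leukocyte marker lists moved in both directions over the times at which Notch1 was high. Of 12 neutrophil markers 10 were higher at 4 h, with a summed level of 2182 to 4504 in intact femurs and 5022 to 16130 at 4 h, but at 3 d 9 were lower, with a sum of 683 to 5943. Of 12 macrophage markers 10 were higher at 1 d, with 552 to 783 in intact femurs and 965 to 1820 at 1 d, and 12 of 12 were higher at 3 d, with 1483 to 2144. T cell markers were lower in 7 of 9 cases at 1 d, and B cell markers in 8 of 10 at 3 d. No marker of these lists was at 0, and their part in the Notch1 change was not tested.

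Notch2 (chromosome 3, 98013527 to 98150361, plus strand), the most abundant receptor and the one linked to bone resorption in human Hajdu-Cheney syndrome, rose at all 5 times after full fracture. Intact femurs ranged from 21.0 to 25.8 with a median of 23.0. The levels at 4 h were 40.5, 39.5, 43.5, 25.1 and 33.7, where only library 4 lay within the intact range, a change of 0.65 ± 0.08 (limma adjusted p = 9.18e-08). From 1 d to 14 d all 5 libraries of each time lay above the intact range, with changes of 0.39, 0.53, 0.49 and 0.43, each ± 0.08, and no variation among the 5 injured times was called (limma F test, adjusted p = 0.126). In ulnas Notch2 rose by 0.34 ± 0.09 at 3 d, with levels of 33.8, 40.1, 41.5, 37.9 and 37.9 all above the highest intact ulna at 32.1 (limma adjusted p = 0.00267). The rise of 0.33 ± 0.09 at 5 d was 0.17 and not called on RPKM as deposited (limma adjusted p = 0.150). At 7 d the rise was 0.24 ± 0.09 (limma adjusted p = 0.0464), and it was not called on leaving out any of 9 libraries (adjusted p from 0.0547 to 0.132), on RPKM as deposited (0.15, adjusted p = 0.272) or with upper quartile scaling (0.22, adjusted p = 0.0633).

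Notch3 (chromosome 17, 32120820 to 32166852, minus strand), the receptor of pericytes and smooth muscle cells, was the only receptor that fell early in both bones. Intact femurs ranged from 9.74 to 16.6 with a median of 13.9, and the 4 h levels of 6.25, 5.10, 5.56, 6.83 and 5.73 all lay below that range. This change of -1.15 ± 0.10 left 0.451 of the intact level (limma adjusted p = 6.17e-11). At 1 d the levels were 9.88, 6.47, 8.41, 8.19 and 7.83, of which 4 lay below the intact range, with a change of -0.69 ± 0.10 (limma adjusted p = 1.57e-06). No change was called at 3 d or 7 d. The rise of 0.24 ± 0.10 at 14 d (limma adjusted p = 0.0460) was not called on leaving out any of 8 libraries (adjusted p from 0.0527 to 0.134), nor on RPKM as deposited (0.22, adjusted p = 0.0897) or in the authors' deposited table.

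Intact ulnas held Notch3 at 12.1 to 20.1 with a median of 17.7, and 4 h after stress fracture the levels were 11.6, 10.7, 10.6, 11.6 and 10.9, all below that range. This fall of 0.59 ± 0.12 on the log2 scale was the only call among the members at that time (limma adjusted p = 0.00160). Notch3 then rose at 5 d, with levels of 21.0, 22.8, 30.1, 35.5 and 20.7, and at 7 d, with 25.4, 22.6, 24.4 and 24.9, all above every intact ulna. The changes were 0.60 ± 0.12 and 0.54 ± 0.13 (limma adjusted p = 1.95e-04 and 0.00204). Mural cell markers, those of pericytes and smooth muscle, gave 1 higher and 7 lower of 12 in femurs at 4 h, and none higher or lower in ulnas at 4 h. Their summed level was 465 to 1095 in intact femurs and 307 to 946 at 4 h, and 575 to 747 in intact ulnas and 541 to 950 at 4 h, with none at 0. Their part in the Notch3 change of either bone was not tested.

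**Figure D3:**
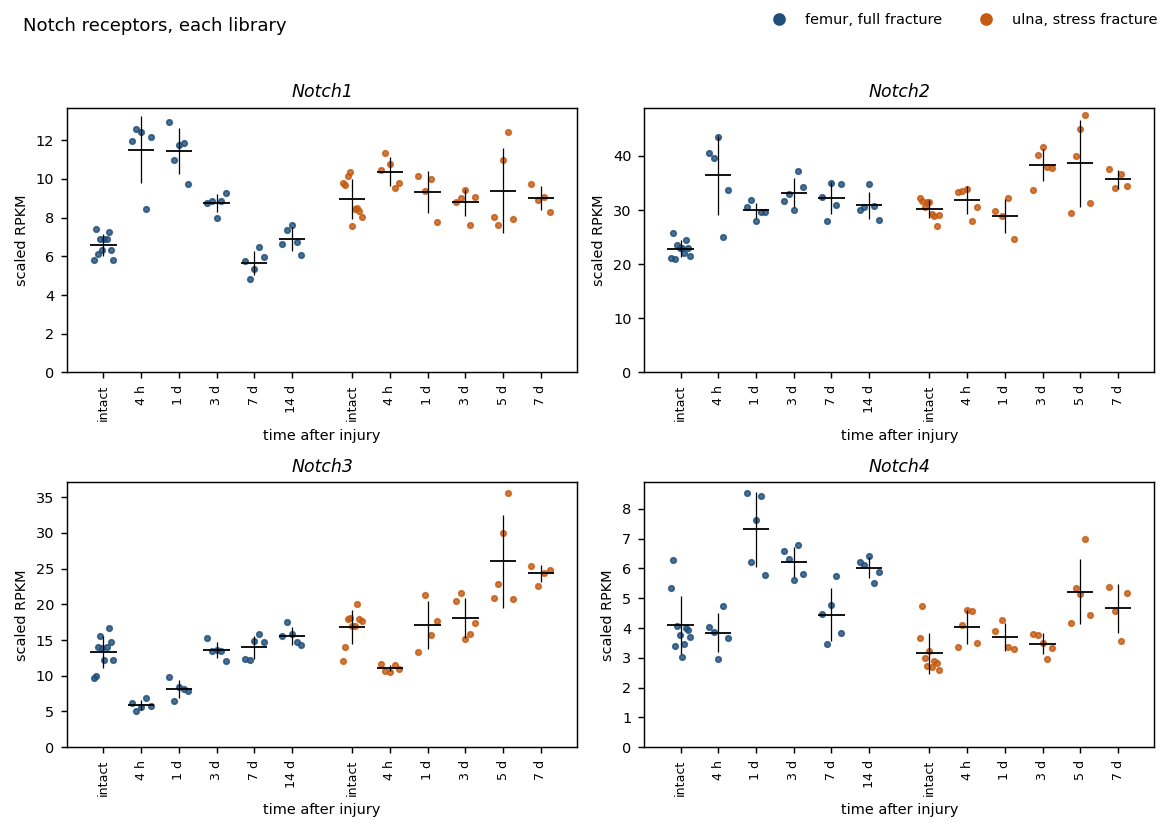
Scaled RPKM (vertical axes, from 0) of the 4 Notch receptors in every library, by time after injury (horizontal axes), with femurs in blue, ulnas in orange, a horizontal line at the group mean and a vertical line of 1 SD to each side. Notch1 stood above all intact femurs from 4 h to 3 d, and Notch3 stood below all intact limbs at 4 h in both bones.

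Notch4 (chromosome 17, 34564268 to 34588503, plus strand), a receptor found mainly on endothelium, ranged from 3.02 to 6.28 in intact femurs with a median of 3.86. It was not called at 4 h. At 1 d the levels of 8.52, 6.21, 7.62, 8.45 and 5.79, of which 3 exceeded all intact femurs, gave a change of 0.83 ± 0.13 (limma adjusted p = 2.72e-06). It was also higher at 3 d by 0.62 ± 0.13 and at 14 d by 0.58 ± 0.13, but it was not called at 7 d. All 5 libraries at 3 d and at 14 d lay above the intact median. Of these, 3 at 3 d and 1 at 14 d exceeded all intact femurs, so the groups overlapped. In ulnas it rose by 0.71 ± 0.13 at 5 d, with levels of 4.18, 5.34, 5.16, 6.99 and 4.45, and by 0.56 ± 0.14 at 7 d (limma adjusted p = 4.28e-05 and 0.00223). Intact ulna library 2 stood at 4.73 where the median was 2.91, and without it the 4 h change of 0.36 ± 0.13 was 0.43 and called (limma adjusted p = 0.0113).

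Both target genes departed from the intact level in fractured femurs, and at 4 h in opposite directions. Hey1 (chromosome 3, 8663359 to 8667256, minus strand), a repressor of the Hairy and Enhancer of split family and a known target of both Notch and BMP signals, ranged from 2.0 to 4.56 in intact femurs with a median of 3.19. At 4 h the levels were 2.33, 0.660, 0.677, 2.35 and 0.938, of which 3 lay below the intact range and 2 in its lower part, a change of -1.30 ± 0.23 (limma adjusted p = 1.40e-05). No change was called at 1 d. At 3 d the 5 libraries were close together, from 4.75 to 5.01, and all above the intact range, with a change of 0.63 ± 0.23 (limma adjusted p = 0.0197). At 7 d the change was 0.80 ± 0.23. At 14 d the levels of 16.8, 15.1, 17.1, 14.8 and 14.6 gave the largest change of any member in femurs, 2.30 ± 0.23 or 4.92-fold (limma adjusted p = 5.70e-10).

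In ulnas Hey1 ranged from 1.58 to 2.70 in intact limbs with a median of 1.94, and no change was called at 4 h or 1 d. The levels were 4.33, 4.44, 3.63, 3.55 and 3.71 at 3 d, 7.99, 8.26, 5.53, 11.1 and 7.56 at 5 d, and 10.7, 9.67, 6.76 and 12.0 at 7 d. All of these exceeded every intact ulna. The changes were 0.91 ± 0.17, 1.91 ± 0.17 and 2.18 ± 0.18 (limma adjusted p = 6.55e-05, 1.67e-10 and 6.29e-10), the last a 4.53-fold rise. Osteoblast markers rose in the same groups, in femurs to 11 of 12 called higher at 14 d. Their summed level in femurs was 3951 to 12930 in intact limbs and 19970 to 23740 at 14 d, with none at 0, and their part in the Hey1 change was not tested.

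Hes1 (chromosome 16, 30064384 to 30067796, plus strand), the other repressor, ranged from 4.61 to 8.19 in intact femurs with a median of 6.64. At 4 h the levels were 9.30, 9.53, 6.70, 11.3 and 13.4, of which 4 exceeded all intact femurs, a change of 0.66 ± 0.14 (limma adjusted p = 1.59e-04). It returned to the intact range in all libraries at 1 d, 3 d and 7 d, with no call. At 14 d the levels of 10.9, 11, 12.9, 9.85 and 7.05 again had 4 above all intact femurs, a change of 0.71 ± 0.14 (limma adjusted p = 6.11e-05). In ulnas no change of Hes1 was called, although all 5 changes were above 0, from 0.04 to 0.25. At 5 d the change of 0.25 ± 0.11 (limma adjusted p = 0.0634) was called without intact library 4, intact library 9 or library 3 of that time (0.28, 0.27 and 0.30, adjusted p from 0.0346 to 0.0468). The authors' deposited table called it, with a log2 fold change of 0.247 and an adjusted p of 0.0219.

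**Figure D4:**
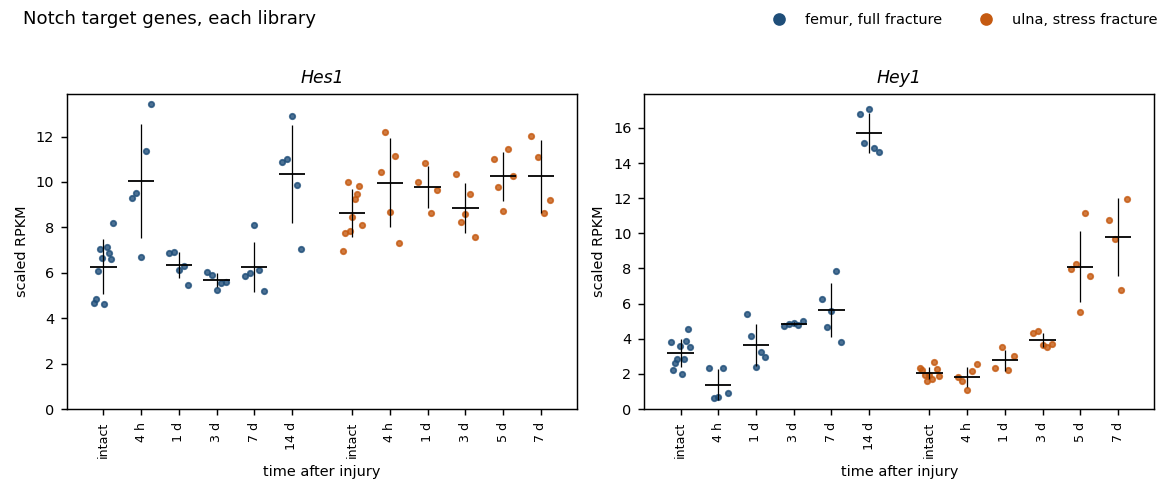
Scaled RPKM (vertical axes, from 0) of Hes1 and Hey1 in every library, by time after injury (horizontal axes), with femurs in blue, ulnas in orange, a horizontal line at the group mean and a vertical line of 1 SD to each side. Hey1 reached 14.6 to 17.1 in femurs at 14 d and 6.76 to 12.0 in ulnas at 7 d, and Hes1 was high in femurs at 4 h and 14 d.

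Levels varied among the 5 injured times in 8 of 10 members in femurs, where a limma F test called 77.8% of all genes, and in 6 of 10 in ulnas, where it called 49.9%. Both shares are close to those of all genes. Notch2 and Dll1 were the members not called in femurs. Notch1, Jag2, Dll1 and Hes1 were not called in ulnas.

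The 2 injuries were compared directly at the 4 times they share, as the femur change minus the ulna change, with both bones scaled together. At 4 h the response of Notch1 was higher in femurs by 0.57 ± 0.13, that of Notch2 by 0.56 ± 0.12 and that of Hes1 by 0.46 ± 0.18, while Notch3 was lower by 0.57 ± 0.16 and Hey1 by 1.13 ± 0.29 on the log2 scale. These were 3 higher and 2 lower members, against 17.8% and 18.2% of 21092 genes. The Hes1 difference (limma adjusted p = 0.0418) was not called on leaving out any of 12 libraries (adjusted p from 0.0502 to 0.136). The difference of -0.44 ± 0.18 for Notch4 was not called (limma adjusted p = 0.0530), but it was called on leaving out any of 8 libraries, as was the -0.34 ± 0.19 of Jag2 on leaving out library 4 or 5 of the femurs at 4 h (adjusted p = 0.0416 and 0.0406) and on RPKM as deposited (-0.40, adjusted p = 0.0461).

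At 1 d the femur response was higher for 5 members and lower for 2, against 13.8% and 13.4% of all genes. Dll4 differed most, by 0.81 ± 0.17 (limma adjusted p = 3.04e-04), followed by Notch1 with 0.72 ± 0.13 and Notch3 with -0.72 ± 0.17. The other called differences were 0.57 ± 0.19 for Notch4, 0.44 ± 0.12 for Notch2, 0.38 ± 0.12 for Jag1 and -0.55 ± 0.19 for Jag2. Those of Notch4, Jag1 and Jag2 depended on single libraries: without ulna library 5 at 1 d they were 0.51, 0.35 and -0.50 and none was called (adjusted p = 0.0636, 0.0524 and 0.0770). Jag1 was also lost without femur library 2 or ulna library 4 of that time (0.32 and 0.33), and Jag2 without femur library 2 or ulna library 2 (-0.49 and -0.46).

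At 3 d Dll4 and Notch1 had the higher response in femurs, by 0.87 ± 0.16 and 0.44 ± 0.13, and Jag2 the lower, by 0.67 ± 0.19. These 2 higher and 1 lower stood beside 12.7% and 13.6% of all genes. At 7 d no member had a higher response in femurs (1 at an unadjusted limma p under 0.05) and 4 had a lower one, beside 23.5% of genes in each direction. Hey1 differed by -1.38 ± 0.30 (limma adjusted p = 1.57e-04), Jag2 by -0.83 ± 0.19, Notch3 by -0.45 ± 0.17 and Jag1 by -0.31 ± 0.12. The Jag1 difference (limma adjusted p = 0.0363) was not called on leaving out any of 9 libraries (adjusted p from 0.0502 to 0.0907). The differences of Notch4 at 3 d (0.47 ± 0.18) and 7 d (-0.43 ± 0.19) were not called (limma adjusted p = 0.0537 and 0.0596), and each was called on leaving out any of 6 libraries. Injury and bone, with its sampling, change together in these comparisons and cannot be told apart.

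**Figure D5:**
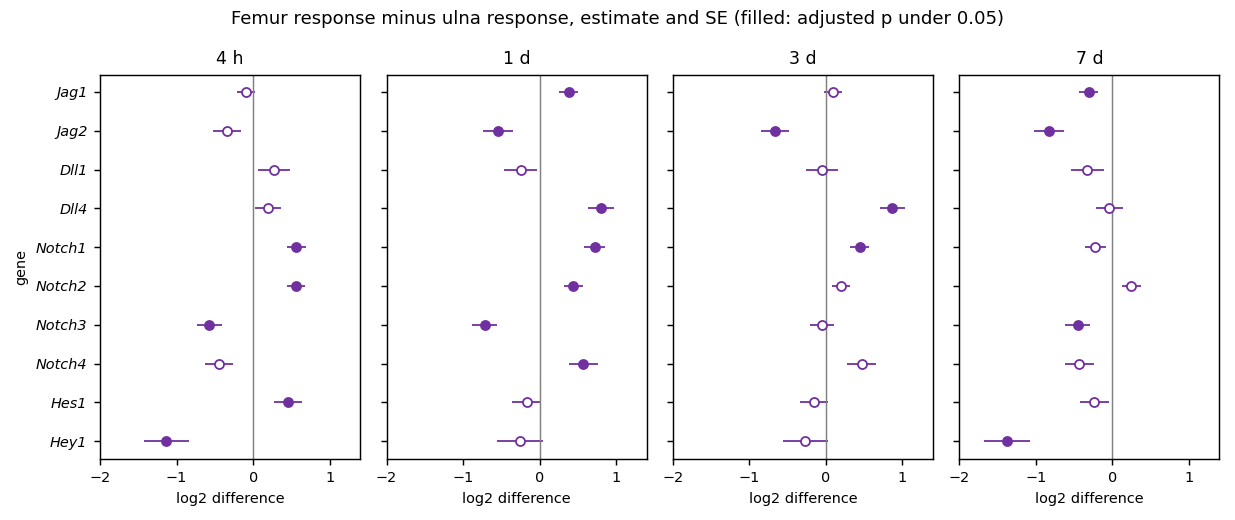
Femur change minus ulna change of each gene (vertical axis) on the log2 scale (horizontal axes) at the 4 shared times, with 1 SE to each side, filled where the adjusted p was under 0.05. Dll4 lay to the right at 1 d (0.81) and 3 d (0.87), Jag2 to the left at all 4 times and filled from 1 d on, and Hey1 to the left at 4 h (-1.13) and 7 d (-1.38).

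Intact ulnas and intact femurs also differed, with 3 members higher in ulnas and 5 lower, against 18.0% and 21.7% of 21092 genes. Bone and sampling, with marrow spun out of femur sections, change together here too and cannot be told apart. Hey1 was 3.42 ± 0.859 (SD, n = 10) in intact femurs and 1.93 ± 0.324 (SD, n = 9) in intact ulnas on the joint scale, a difference of -0.77 ± 0.17 (limma adjusted p = 2.19e-04). Dll4, at 3.54 ± 0.664 and 2.28 ± 0.313, differed by -0.60 ± 0.10, and Notch4, at 4.39 ± 1.05 and 2.95 ± 0.637, by -0.55 ± 0.11. Dll1 and Jag1 were lower in ulnas by 0.36 ± 0.12 and 0.21 ± 0.07. Hes1, Notch1 and Notch2 were higher in ulnas by 0.27 ± 0.11, 0.25 ± 0.07 and 0.20 ± 0.07. The groups overlapped for all 10 members. On RPKM as deposited the typical gene differed by a median of 0.20 in place of -0.01, the Jag1 difference turned to 0.01 (limma adjusted p = 0.960), that of Dll1 was -0.15 and not called (limma adjusted p = 0.341), and that of Notch3 went from 0.15 ± 0.09, not called, to 0.37 (limma adjusted p = 0.00103). The Hes1 call (limma adjusted p = 0.0340) was lost on leaving out any of 7 libraries (adjusted p from 0.0557 to 0.0837).

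The rest of the pathway was described from lists of 58 other genes, of which 51 could be tested in femurs and 49 in ulnas. In femurs 16 rose and 18 fell at 4 h, 18 and 14 at 1 d, 25 and 9 at 3 d, 26 and 15 at 7 d, and 27 and 10 at 14 d. The counts at 4 h are near the 28.3% and 28.5% of all genes called higher and lower, and those at 1 d stand beside 26.7% and 24.8%. From 3 d on the rises stand beside 28.8%, 32.5% and 28.9% of all genes and the falls beside 28.0%, 33.6% and 27.0%. In ulnas 2 rose and 3 fell at 4 h, 2 and 2 at 1 d, 18 and 5 at 3 d, 20 and 6 at 5 d, and 20 and 5 at 7 d, where 5.51%, 8.83%, 20.2%, 22.3% and 18.5% of all genes were called higher at the 5 times and 5.19%, 3.98%, 17.6%, 20.9% and 16.0% lower. The median change of these genes was 0.25 in femurs at 14 d and 0.17 in ulnas at 7 d.

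Among genes that process receptors, Furin, the protease that cuts Notch receptors on their way to the surface, was higher in 9 of the 10 injury comparisons. It was 12.1 ± 1.16 (SD, n = 10) in intact femurs and 24.8 ± 5.41 (SD, n = 5) at 4 h, a change of 1.01 ± 0.10. Poglut1, which adds glucose to the extracellular part of Notch, was lower at 4 h in femurs (-0.55 ± 0.08) and higher in 8 comparisons, up to 0.96 ± 0.08 at 7 d in femurs. Psen2, a catalytic subunit of gamma-secretase, was higher in femurs at 4 h by 0.30 ± 0.10 and lower in ulnas by 0.34 ± 0.11 at 1 d and 0.29 ± 0.11 at 7 d on the log2 scale.

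In the list of ubiquitin ligases of ligands and their relatives, Neurl3 rose by 1.80 ± 0.16 at 4 h and 1.81 ± 0.16 at 1 d in femurs and fell later, by 0.53 ± 0.16 at 7 d in femurs and by 0.66 ± 0.13 at 5 d and 0.59 ± 0.14 at 7 d in ulnas. Neurl1a was lower in 8 comparisons, with 20.9 ± 5.03 (SD, n = 10) in intact femurs and 6.01 ± 1.04 (SD, n = 5) at 14 d. Neurl1b fell at 4 h in both bones, by 0.76 ± 0.14 in femurs and by 0.31 ± 0.08 in ulnas, and rose later in both. Mib2, a further ligase of Notch ligands, fell at 4 h in both bones, by 0.70 ± 0.07 in femurs and by 0.32 ± 0.08 in ulnas. Itch, a ligase that marks Notch for breakdown, was higher in 8 comparisons, all by at most 0.59. Numbl, a relative of the Notch inhibitor Numb, was lower at 4 h in femurs and higher by 1.43 ± 0.07 at 7 d. Dtx1, a modulator and target of Notch in lymphocytes, was higher at 4 h in femurs and lower in 7 comparisons, with -1.97 ± 0.21 at 3 d in femurs, where 8 of 10 B cell markers also fell and the part of these cells was not tested.

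The noncanonical ligands included the largest change among these lists. Dlk2, a Delta-like protein without the usual receptor-binding domain, went from 0.0985 ± 0.0375 (SD, n = 10) in intact femurs to 3.86 ± 0.973 (SD, n = 5) at 7 d, a change of 4.31 ± 0.30. It passed the filter on low values only through fractured femurs, since no intact femur exceeded 0.156, so no p-value is given. With an intact mean near the added 0.1, the size of this change depends on that setting. Mfap2, a microfibril protein, fell by 1.33 ± 0.20 at 4 h in femurs and rose by 2.45 ± 0.20 at 7 d, and in ulnas it rose by 2.15 ± 0.20 at 5 d and 1.98 ± 0.21 at 7 d. Mfap5, another microfibril protein, fell by 1.14 ± 0.30 at 1 d in femurs, rose there by 0.87 ± 0.30 at 3 d and 2.06 ± 0.30 at 7 d, and rose by 1.66 ± 0.19 at 3 d in ulnas. Chondrocyte markers were higher in 13 of 14 cases in femurs at 7 d, with a summed level of 172 to 431 in intact femurs and 7168 to 15800 at 7 d, and their part in these changes was not tested.

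Of the other targets, Hey2, the arterial relative of Hey1, fell by 1.43 ± 0.23 at 4 h in femurs and rose by 1.56 ± 0.23 at 14 d, where it stood at 2.53 ± 0.424 (SD, n = 5) against 0.797 ± 0.155 (SD, n = 10). Hes6, a relative of Hes1 that can oppose it, rose by 1.12 ± 0.10 at 3 d in femurs. Epas1, which encodes the hypoxia factor HIF-2 alpha, fell by 1.25 ± 0.10 at 3 d in femurs. Nrarp, a target that limits Notch signalling, was the largest rise of the pathway in ulnas at 1 d, 0.78 ± 0.19 (limma adjusted p = 0.00471). Heyl, the third HEY gene and named after its values were seen, fell by 1.15 ± 0.16 at 4 h in femurs and rose by 1.49 ± 0.16 at 14 d in femurs and 0.81 ± 0.15 at 7 d in ulnas.

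Likeness of pattern was measured as Pearson's r between the mean log2 levels of a member and of each of 14918 other genes over the 12 groups, with both bones scaled together. The groups belong to 2 bones and follow the same time courses, so r is a description. Hey1 was most like Cd2ap (0.973), Fat1 (0.970) and Sh3bp4 (0.963), and Jag2 most like Adcy9 (0.965), Adamtsl5 (0.962) and Cfd (0.961). Notch3 was most like Cc2d2a (0.964), Nbea (0.963) and Zfhx4 (0.960), and Jag1 most like Gal (0.959), Slc26a11 (0.934) and Ibsp (0.928). Notch1 was most like Nlrp3 (0.947), Neurl3 (0.940) and Csf2rb2 (0.936), and Dll4 most like Sec24c (0.946), Micall1 (0.934) and Rps29 (0.931). The closest genes were Zc3h7a (0.935), Piezo1 (0.922) and Mir3074-1 (0.911) for Dll1, Bcl6b (0.905), Gngt2 (0.902) and Trp53i11 (0.891) for Notch4, and Dip2b (0.901), Dgkh (0.894) and Baiap2 (0.870) for Notch2. Hes1 had the least like neighbours, Gm10638 (0.844), Lrrn3 (0.842) and Gm22353 (0.829). Between members, Notch4 and Dll4 (0.873) and Jag1 and Hey1 (0.832) were the most alike pairs, and Notch1 and Notch3 the least (-0.661).

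Of 100 pairs of member and injury comparison, 57 were called both here and in the authors' deposited table, all with the same sign, and the largest difference in log2 change was 0.145. The authors' deposited table called 2 further pairs, Hey1 in ulnas at 1 d (log2 fold change 0.378, adjusted p = 0.0419) and Hes1 in ulnas at 5 d. Only Notch3 in femurs at 14 d was called here and not there, where the authors' deposited table gave 0.193 (adjusted p = 0.134).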

How the data were processed

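The authors deposited RPKM values (reads divided by gene length and library total) for 67 libraries in 10 tables, and 3 of the 70 labelled samples were not analysed here. Per the submitters' processing notes, reads were processed with STAR 2.4.2a, Subread and featureCounts 1.4.6 on mm10, with an annotation not given in the sources used here, and tested with DESeq2. A deposited workbook held the authors' log2 fold changes and their adjusted p-values. Ulna times came from names of the deposited tables.

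Median of ratios scaling was applied to RPKM per bone, or jointly for comparisons between bones. A gene entered the fit when 5 or more libraries reached 0.5 scaled RPKM. The fit used log2(scaled RPKM + 0.1), limma 3.58.1 (R 4.3.3), a variance trend and robust estimates. It was also run on simulated data with independent libraries, a run that does not cover limbs of the same animal. The added 0.1 understates changes of low genes. All groups of a bone shared 1 fit, and all 67 libraries the fit across bones. RPKM keep only relative depth, and between 88.9% and 91.5% of values under 20 reads came out whole within 0.01. In each bone 27 gene names turned into dates were left out.

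Members and lists were chosen with earlier results of these data known. Named pathway genes, Heyl apart, were called in at least 8 of 10 injury comparisons or were extremes of a comparison. An extreme was the largest rise or fall with at least 1 scaled RPKM. Heyl met neither rule and was named after its values were seen. The 3 most alike genes were named for each member. Sequences and promoter positions are RefSeq's on GRCm38.p6, gene positions GENCODE M21's on GRCm38. Alternatives were no filter, an added 1, RPKM as deposited, upper quartile scaling, no variance trend or robust estimates, only the groups compared, and leaving out each library.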

Additional observations from a re-analysis of the deposited data

Results flagged for a closer look

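In 7 of 120 groups of a member, 1 library stood far from the others by Dixon's criterion, and chance alone marks about 1 group in 20. Notch1 was low in femur library 4 at 4 h (8.43 scaled RPKM). Notch4 was high in intact ulna library 2 (4.73), Dll4 in intact ulna library 4 (3.18) and Jag1 in intact ulna library 8 (10.2). Jag1 was high in ulna library 2 at 1 d (11.2), Dll1 in ulna library 5 at 3 d (4.28) and Dll4 in ulna library 4 at 5 d (4.01).

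The femur and ulna responses differed by the test of the difference itself in 19 cases. At 4 h these were Notch1 (0.57), Notch2 (0.56), Notch3 (-0.57), Hes1 (0.46) and Hey1 (-1.13). At 1 d they were Notch1 (0.72), Notch2 (0.44), Notch3 (-0.72), Notch4 (0.57), Jag1 (0.38), Jag2 (-0.55) and Dll4 (0.81). At 3 d they were Notch1 (0.44), Jag2 (-0.67) and Dll4 (0.87), and at 7 d Notch3 (-0.45), Jag1 (-0.31), Jag2 (-0.83) and Hey1 (-1.38). Of all genes, 17.8% were called higher at 4 h, 13.8% at 1 d, 12.7% at 3 d and 23.5% at 7 d. Those called lower were 18.2%, 13.4%, 13.6% and 23.5% at these times in order. With both directions together, the share of members called was above that of all genes at 4 h and 1 d. That share was near the one of all genes at 3 d and below it at 7 d. Leaving out single libraries lost the calls of Hes1 at 4 h, Jag1 at 7 d and, at 1 d, Notch4, Jag1 and Jag2.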

How the results depend on the processing

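On RPKM as deposited the count of members called in femurs at 7 d went from 7 to 4, and the Jag1 difference between intact bones reversed to 0.00548. There the median change of all genes moved from -0.08 to -0.28 in femurs at 7 d, and by over 0.1 also in femurs at 4 h, ulnas at 5 d, the differences at 1 d, 3 d and 7 d, and the intact bones. Leaving out single libraries, the counts ran from 1 to 2 in ulnas at 4 h, 0 to 1 in ulnas at 1 d and 4 to 7 for the difference at 1 d. Every other count of members stayed within 1.5 times its main value under the alternatives run. Of 150 values of a member in a comparison, 132 kept their side of the threshold on RPKM as deposited. The number that did so was 145 with no filter, and 145 again when libraries were scaled by their upper quartile. It was 148 without the variance trend and robust estimates and 149 with an added 1. With only the groups compared, 98 of 100 did so, as did 2674 of 2760 leaving out single libraries. These counts do not show whether values that were not called kept their direction. No paired analysis was possible because the table columns carry no animal numbers, so the animal as a block was not run, although 10 animals per bone gave both limbs. Dll1, Dll4 and Hey1 rest on the fewest reads, with minima of 42, 78 and 30 in a library.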
